A study of Homo sapiens with 9 samples.

Results

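BCR and ABL1 are the genes that are joined in the Philadelphia chromosome of chronic myelogenous leukemia, and K562, a long-established leukemia cell line with erythroid features, carries this fusion. Small noncoding RNAs (sncRNAs) of BCR and ABL1 were taken from the small RNA-seq profile of K562 by position. An sncRNA is used here for each listed unique alignment, whatever its number of reads. Members were all sncRNAs that lie wholly within BCR, at chr22:23522552-23660224, or within ABL1, at chr9:133589268-133763062 (GRCh37, both genes on the plus strand). There were 902 of them out of 3688019 sncRNAs in all, with 456 in BCR and 446 in ABL1. K562 cells with no treatment named were profiled in 3 batches as libraries selected for inserts of 20 to 40 nt, and the deposited values pool these batches. Over the whole profile there were 47670688 reads, 73.6% of sncRNAs had 1 read, and lengths ran from 10 to 42 nt with 64.2% under 18 nt. None of the values below therefore has a replicate error or a p-value, and intervals are exact 95% intervals that cover counting error only. The 6 HEK293 samples of the same study were not analysed here.

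In the fusion, the promoter and the first exons of BCR are followed by the kinase exons of ABL1, and the joined transcript is made from the BCR promoter. BCR encodes a protein with an oligomerization domain near its start, and ABL1 encodes a nonreceptor tyrosine kinase that is constantly active once it is fused. K562 is known for the e14a2 form, in which exon 14 of BCR is spliced to exon 2 of ABL1. The parts of BCR after the break and of ABL1 before it are not part of that transcript. The breakpoints used were position 23632600 on chromosome 22, which is the last base of BCR exon 14 in the annotation, and position 133607150 on chromosome 9, which lies in the first intron of ABL1 between its alternative first exons, 1b and 1a. The part of BCR 5′ of its breakpoint (110.049 kb) and the part of ABL1 3′ of its breakpoint (155.912 kb) are called the fused parts.

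The sncRNAs that mark the edges of the fused parts were the following, with exon bases in capitals and other bases in lower case, 5′ to 3′ on the strand of the gene. The first lies in BCR exon 14 (chr22:23632556-23632582), starts 44 nt before the breakpoint and had 2 reads. The second lies in intron 1b of ABL1 (chr9:133607898-133607924), starts 748 nt after the breakpoint and had 1 read.
last before the BCR breakpoint: TGAATGTCATCGTCCACTCAGCCACTG
first after the ABL1 breakpoint: aaatctggtggactcattttctctgtg

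The sense sncRNAs of 18 nt or longer that lie 3′ of the BCR breakpoint are shown in full because there were only 4, each of 1 read. They start in intron 14 with its last bases running into exon 15 (chr22:23634724-23634742), in intron 16 (chr22:23641952-23641978 and chr22:23651216-23651235) and in the untranslated end of exon 23 (chr22:23659382-23659400).
intron 14 and exon 15: acagATCTGTACTGCACCC
intron 16, first: aattgctgagccaggcacctgccctct
intron 16, second: cagcagctgtggatgccagg
exon 23: CTCTGCTTGTGGACCTGGC

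Only the first sncRNA of intron 16 had a single exact match in GRCh37, whereas the others had 2, 2 and 8. In ABL1, 5 sense sncRNAs of 18 nt or longer lie 5′ of the breakpoint, all in intron 1b, with 6 reads in all. The one with the most reads (chr9:133592975-133592992) had 2 reads and 1 exact match, and it is shown as the only one of these with more than 1 read.
ABL1 intron 1b, 5′ of the breakpoint: gctgcggtgagccatgaa

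The clusters of overlapping sense sncRNAs with the most reads in the exons and introns of the fused parts are shown by 1 sncRNA each. Only clusters whose sncRNA of highest RPKM was 18 nt or longer were eligible, and cluster reads include sncRNAs of any length. In BCR exon 1, in its untranslated part, the sncRNA shown (chr22:23522734-23522752), the one of highest RPKM within its cluster, had 2 of the 35 reads there, and the 24 sncRNAs of the cluster have scattered ends. In BCR intron 8 (chr22:23619938-23619956) the sncRNA had 2 reads in a cluster of 8. In ABL1 intron 1b (chr9:133699627-133699653) it had 9 reads in a cluster of 11, and in the untranslated end of ABL1 exon 11 (chr9:133762345-133762363) it had 5 reads in a cluster of 7. Also shown is the sense sncRNA of 18 nt or longer with the most reads in BCR, chosen after its value was seen, at chr22:23522780-23522801 in exon 1. It had 17 reads, and its deposited RPKM of 85.6 rests on a read count that includes those of its near neighbours. The 5′ end was shared by 28 of the 34 reads that overlapped there. Each of these had 1 exact match in the genome.
BCR exon 1, cluster of most reads: CTGGCTGAGCTTAGCGTCC
BCR exon 1, single sncRNA of most reads: CGGCGGCGGCGGGGCTGTGGGG
BCR intron 8: acccccactgtggctccta
ABL1 intron 1b: gccagtgatgtggattccagtctgaag
ABL1 exon 11: CAAACGGAGCCCCTGAAAG

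The first question was whether sense sncRNAs of 18 nt or longer stop at the breakpoints. In BCR they were found almost wholly 5′ of the breakpoint, with 224 of 228 there, or 2.04 per kb against 0.145 per kb on the other side. The density was 14.1-fold higher in the fused part (95% interval 5.41–52.0). Within the bounds of the rule, those of ABL1 were found 3′ of the breakpoint, with 228 of 233 there, or 1.46 per kb against 0.280 per kb, which was 5.23-fold higher (2.21–16.3). The side of higher density was thus opposite in these genes, and in both it was the side kept in the fusion. When ABL1 was taken from the annotated start of its exon 1b, which lies before the start used by the rule, 21 lay 5′ of the breakpoint (1.12 per kb). The ratio of 1.30 then had an interval that includes equal density (0.833–2.15), because 16 sncRNAs near that start were added. These 16 formed only 2 clusters of overlapping sncRNAs. The introns, which do not depend on that start, are therefore given apart below.

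**Figure D1:**
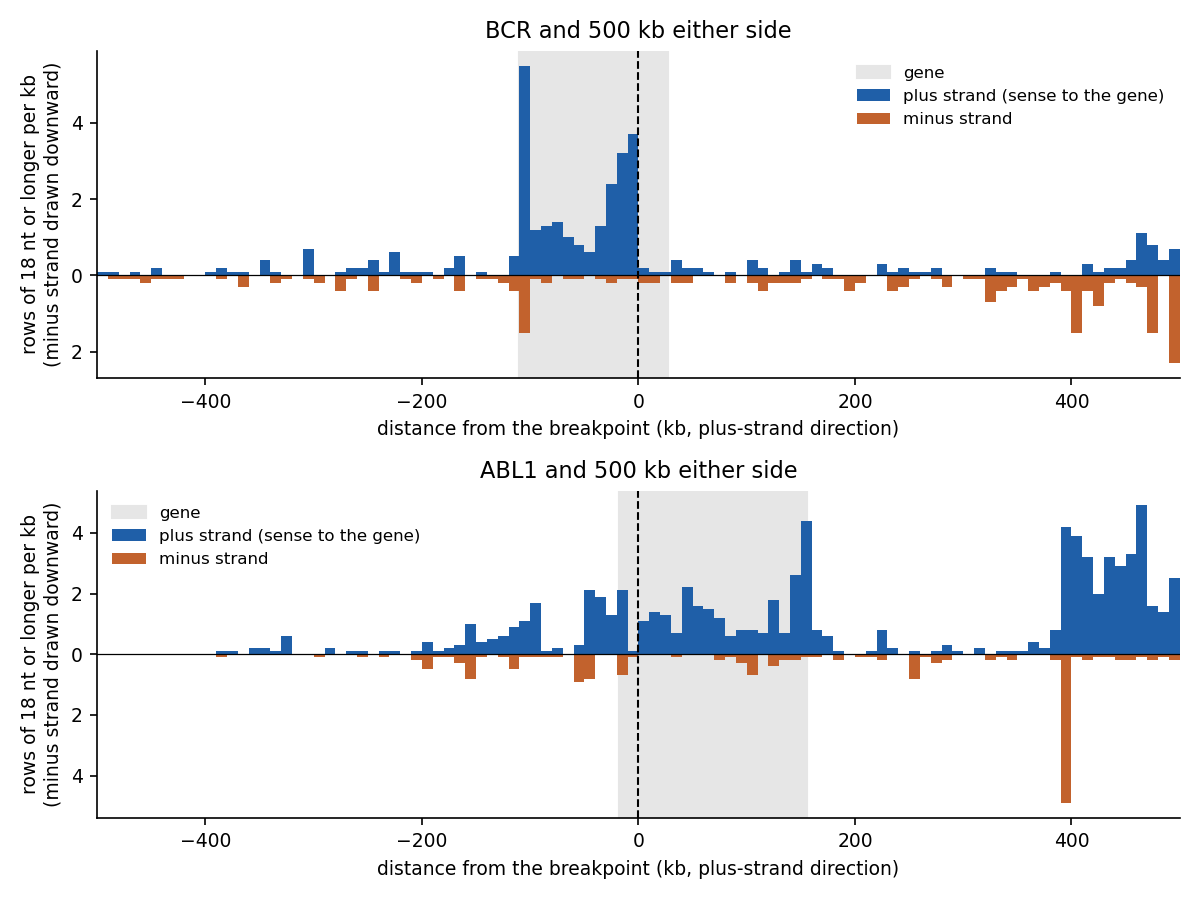
sncRNAs of 18 nt or longer per kb (vertical axis) in bins of 10 kb by distance from the breakpoint in kb (horizontal axis), on the plus strand (upward) and on the minus strand (downward), for BCR and ABL1 with 500 kb either side, where grey marks the gene within the bounds of the rule and the dashed line the breakpoint. Plus-strand density was 3.7 per kb in the last 10 kb before the BCR breakpoint and 0.2 per kb in the first 10 kb after it, whereas in ABL1 it was 0.1 per kb before and 1.1 per kb after, and the empty stretch at the far left of ABL1 lies in undetermined bases of the reference.

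Counts beside the breakpoints were as follows. In BCR, 24 sense sncRNAs of 18 nt or longer lay in the last 5 kb before the breakpoint and 1 in the first 5 kb after it. The nearest one after the BCR breakpoint started 2124 nt from it. In ABL1, none lay in the last 5 kb before the breakpoint, which allows up to 3, and 5 lay in the first 5 kb after it. The place of the change was therefore not resolved to 5 kb in ABL1, where moving the split 5 kb upstream or downstream gave 5′ over 3′ intron ratios of 0.373 and 0.397. In bulk RNA, fewer cells with a transcript and less of it per cell cannot be told apart.

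Introns are removed from the messenger RNA, so that sncRNAs of introns were counted apart from those of exons. Exons were those of protein-coding transcripts, introns the rest of the gene, and an sncRNA was assigned by its 5′ end. In the introns of BCR, 149 sense sncRNAs of 18 nt or longer lay 5′ of the breakpoint (1.40 per kb) and 3 lay 3′ of it (0.125 per kb), an 11.2-fold difference (3.76–55.0). In the introns of ABL1, 5 lay 5′ (0.289 per kb) and 169 lay 3′ (1.12 per kb), a 3.89-fold difference toward the 3′ side (1.64–12.1). Both intervals lie away from equal density. With only sncRNAs of at least 2 reads, 26 lay 5′ and none 3′ in the BCR introns, whereas in the ABL1 introns 1 lay 5′ and 33 lay 3′, a 3.799-fold difference whose interval includes equal density (0.636–154.6).

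The exons of BCR held 75 sense sncRNAs of 18 nt or longer 5′ of the breakpoint (22.2 per kb) and 1 on the 3′ side (0.282 per kb). This 78.8-fold difference has a wide interval (13.7–3153), since it rests on 1 sncRNA 3′, and it takes overlapping sncRNAs as separate counts. By clusters of overlapping sncRNAs, 24 lay 5′ and 1 lay 3′, a ratio of 25.2 (4.11–1037). Less of the exon sequence is unique on the 3′ side, as given below. In ABL1, 59 lay in the exons 3′ of the breakpoint (10.6 per kb), and within the bounds of the rule none lay in the exon 1b sequence 5′ of it (0.575 kb). Against the limit of 3 that a count of 0 allows, the density was at least 2.03-fold higher 3′.

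Counted by sncRNAs, this exonic difference in ABL1 depended on where the gene was taken to start. The annotation (GENCODE release 44) begins exon 1b at position 133588430, 838 nt before the start used by the rule, and 16 sense sncRNAs of 18 nt or longer with 26 reads lay in that stretch. They formed 2 clusters of overlapping sncRNAs and covered 77 nt (chr9:133588448-133588524) near the annotated start of the gene, and 15 of them had 1 exact match. With the whole of exon 1b (1.413 kb), the density 5′ of the breakpoint was 11.3 per kb (6.47–18.4). The 5′ over 3′ ratio was 1.07 with an interval that includes equal density (0.575–1.89). That interval takes overlapping sncRNAs as separate counts. By clusters, 2 lay in exon 1b and 39 in the exons 3′ of the breakpoint (5.578 kb), and no interval was computed for these. The most abundant of the 16 sncRNAs (chr9:133588457-133588475, 6 reads, 2 exact matches) was the following.
ABL1 exon 1b, before the start of the rule: GTGTCTGTGCCTGAGCAGC

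sncRNAs shorter than 18 nt showed the difference less. In BCR introns there were 80 sense sncRNAs under 18 nt 5′ (0.750 per kb) and 6 on the 3′ side (0.249 per kb), a ratio of 3.01 (1.32–8.44). In BCR exons there were 22 and 2, a ratio of 11.6 (2.84–101.4). In ABL1 introns there were 6 on the 5′ side (0.347 per kb) and 83 on the 3′ side (0.552 per kb), and the ratio of 0.628 has an interval that includes equal density (0.224–1.43). Whether the ratios of the length classes differ from each other was not tested. The short class also held fewer sequences that fit a single place, since 23.6% of the short sense sncRNAs of BCR (16.1–32.7%) and 30.3% of those of ABL1 (21.8–39.8%) had 1 exact match in GRCh37, against 93.4% (89.4–96.3%) and 91.8% (87.6–95.02%) of the longer ones.

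The antisense strand served as a background measured in the same libraries and at the same positions. In BCR introns, 13 antisense sncRNAs of 18 nt or longer lay 5′ (0.122 per kb) and 4 lay 3′ (0.166 per kb), a ratio of 0.734 (0.227–3.09). In ABL1 introns, 2 lay 5′ (0.116 per kb) and 21 lay 3′ (0.140 per kb), a ratio of 0.827 (0.0940–3.38). At this depth and this length no difference between the sides was detectable on the antisense strand of the introns. Under 18 nt the antisense intron ratios were 0.873 in BCR (0.488–1.66) and 0.612 in ABL1 (0.193–1.496) by sncRNAs. By reads they were 2.77 (2.11–3.70) and 0.359 (0.162–0.693), both higher on the fused side, where 1 cluster held 564 of 700 reads in BCR and 1 held 164 of 218 in ABL1. Sense sncRNAs of 18 nt or longer outnumbered antisense ones 8.62 to 1 in the fused part of BCR (5.73–13.5) and 9.91 to 1 in that of ABL1 (6.44–15.96). In the part of BCR that is not fused, 4 were sense and 4 antisense, and in that of ABL1 5 were sense and 2 antisense. Under 18 nt, the sense to antisense ratio was 1.42 (1.04–1.94) in the fused part of BCR and 1.39 (1.02–1.90) in that of ABL1.

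The antisense strand differed by side in the exons of BCR. Exon 1 of BCR held 12 of the 13 exonic antisense sncRNAs of 18 nt or longer, and the 3′ exons held none. Against the limit of 3 taken for a count of 0, the antisense density of exons was 4.55-fold higher 5′ (exact interval from 3.20-fold). Of the 51 genes with enough exonic antisense sncRNAs for the same split, described below, 70.6% were past 2-fold in that direction. ABL1 had 2 exonic antisense sncRNAs of this length, both 3′ of the breakpoint, and of 53 genes split like ABL1 56.6% were past 2-fold toward the 5′ side. In the 1 kb upstream of the first exon, minus-strand sncRNAs of 18 nt or longer numbered 1 for BCR and 6 for ABL1 at its annotated start. Near gene starts, RNA polymerase II is known to transcribe both strands.

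Along BCR, sense sncRNAs of 18 nt or longer followed the exon structure up to exon 14 and were few after it. Exon 1, which carries the oligomerization domain, held 52 (30.04 per kb), and exons 2 to 14 together held 23 (15.3 per kb), with at least 1 in 11 of these 13 exons. Exons 15 to 23 held 1 in 3.549 kb. Without exon 1, the density in exons 2 to 14 was still 54.3-fold that in exons 15 to 23 (8.82–2237). This fold uses the full length, whereas only 20.1% of exon positions 3′ of the breakpoint start an 18-mer found once in GRCh37, against 87.3% 5′. At such positions alone, with exon 1 included, the exonic difference was 5.41-fold against the limit of 3 taken for a count of 0 (exact interval from 4.28-fold). Intron 1, the longest at 71.559 kb, had 0.936 per kb, whereas introns 2 to 13 had 2.34 per kb, so that the density of intron 1 was 0.401 times that of the next introns (0.286–0.560). Each of introns 2 to 13 held at least 1. Introns 14 to 22 together held 3 in 24.075 kb, and introns 2 to 13 exceeded them 18.7-fold (6.19–92.7).

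Along ABL1, the first intron itself was divided by the breakpoint. Intron 1b had 0.289 per kb before the breakpoint and 1.24 per kb (128 in 103.49 kb) from there to exon 1a, a 4.28-fold difference within 1 intron (1.79–13.4). Exon 1a, the alternative first exon of 0.272 kb that the e14a2 transcript leaves out, held none. In so short an exon the interval of this count reaches 13.6 per kb, above the 11.1 per kb of exons 2 to 11. A lower density in exon 1a than in those exons was therefore not resolved. Intron 1a had 0.647 per kb and introns 2 to 10 had 1.02 per kb. Exons 2 to 11, which encode the kinase and the actin-binding part of the protein, held 59 (11.1 per kb), of which 38 were in the long last exon (10.3 per kb) and 21 in exons 2 to 10 (13.1 per kb). The ratio between exons 2 to 10 and exon 11 was 1.28 with an interval that includes equal density (0.714–2.24).

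When ABL1 was split at exon 2, the first exon that the e14a2 transcript keeps, the intronic densities of the sides were close. There were 145 sense sncRNAs of 18 nt or longer in the introns before exon 2 and 29 after it, a 5′ over 3′ ratio of 1.02 (0.678–1.57). Of the sncRNAs before exon 2, 128 came from intron 1b after the breakpoint. That stretch exceeded intron 1a 1.91-fold (1.06–3.79), and the interval of intron 1a (0.334–1.13 per kb) overlaps that of intron 1b before the breakpoint (0.0938–0.674 per kb).

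The fused parts were then compared with each other, since they belong to the same joined transcript. Their introns had 1.40 per kb in BCR and 1.12 per kb in ABL1, a ratio of 1.24 whose interval just includes equal density (0.990–1.56). Counted by sncRNAs, their exons differed 2.10-fold, with more in BCR (1.47–3.004). By clusters of overlapping sncRNAs, these exons held 24 in 3.378 kb of BCR and 39 in 5.578 kb of ABL1, which are close in density. The exonic excess in BCR therefore depended on the unit counted. Without exon 1 of BCR, exons 2 to 14 of BCR and exons 2 to 11 of ABL1 had a ratio of 1.38, with an interval that includes equal density (0.811–2.26). Antisense introns had 0.122 and 0.140 per kb.

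No sncRNA that crosses the e14a2 junction can appear in alignments to the genome, and such sequences were not analysed here. For reference, the bases that this junction joins are the following, from the end of BCR exon 14 (chr22:23632586-23632600) and the start of ABL1 exon 2 (chr9:133729451-133729465).
end of BCR exon 14: ttaagcagagttcaa
start of ABL1 exon 2: aagcccttcagcggc

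No listed sncRNA ended at the last base of BCR exon 14 and none started at the first base of ABL1 exon 2. No sense sncRNA of 18 nt or longer ran from an exon into the following intron, and 1 in each gene ran from an intron into the following exon. In BCR that one is the sncRNA of intron 14 and exon 15 shown above.

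Part of BCR is repeated elsewhere on chromosome 22 in related copies, which bears on unique alignment. Of the positions in BCR exons 3′ of the breakpoint, 20.1% start an 18-mer that occurs once in GRCh37, against 87.3% 5′ of it, and in introns the shares were 49.0% and 65.0%. Only such positions and the sncRNAs that start there were then counted. In the BCR exons, 67 remained 5′ (22.7 per kb) and none in 0.714 kb 3′. Against the limit of 3 taken for a count of 0 this was 5.41-fold lower (exact interval from 4.28-fold). In the BCR introns, 118 remained 5′ (1.70 per kb) and none in 11.807 kb 3′, which was 6.70-fold lower against that limit (exact interval from 5.36-fold). In ABL1, unique positions made up 39.4% of introns 5′ of the breakpoint and 52.1% on the 3′ side, and counted there alone the densities were 0.294 and 1.56 per kb. GC content was 66.3% in the BCR exons 5′ of the breakpoint and 55.5% in those 3′ of it, against 52.3% and 53.8% in its introns, and the part of GC in the exonic difference was not tested.

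The same split was applied to other genes to see how often such ratios occur. Protein-coding genes of at least 20 kb with at least 20 sense sncRNAs of 18 nt or longer in the element were divided at the fraction of their length where BCR is divided (79.9%) or ABL1 (10.3%). For introns at the BCR fraction, 24.4% of 4900 genes had a 5′ density more than 2-fold the 3′ density, and 4.14% had a ratio at least as high as the 11.2 of BCR. Of these intron ratios, 172 lay in the highest bin, where genes with no sncRNA 3′ were counted. For exons, 51.0% of 2393 genes were past 2-fold in that direction and 5.77% in the other, with a median ratio of 2.04, and 5.47% were at least as high as BCR. A 2-fold difference alone was therefore common, above all in exons, whereas ratios of the size found in BCR were found in few genes.

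At the ABL1 fraction, 22.1% of 4926 genes had intronic density more than 2-fold higher 3′, and 10.4% had a 5′ over 3′ ratio at or below the 0.257 of ABL1. Of these intron ratios, 301 lay in the lowest bin, where genes with no sncRNA 5′ were counted. For exons, 13.6% of 2448 genes were past 2-fold toward the 3′ side and 64.5% toward the 5′ side, with a median 5′ over 3′ ratio of 3.23. A ratio of 0 like that of ABL1 within the bounds of the rule was found in 9.72%, and 22.3% were at or below the ratio of 1.07 with the annotated exon 1b. On the antisense strand, the share past 2-fold in introns was 28.0% toward the 5′ side at the BCR fraction and 27.8% toward the 3′ side at the ABL1 fraction, and neither gene was past 2-fold.

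**Figure D2:**
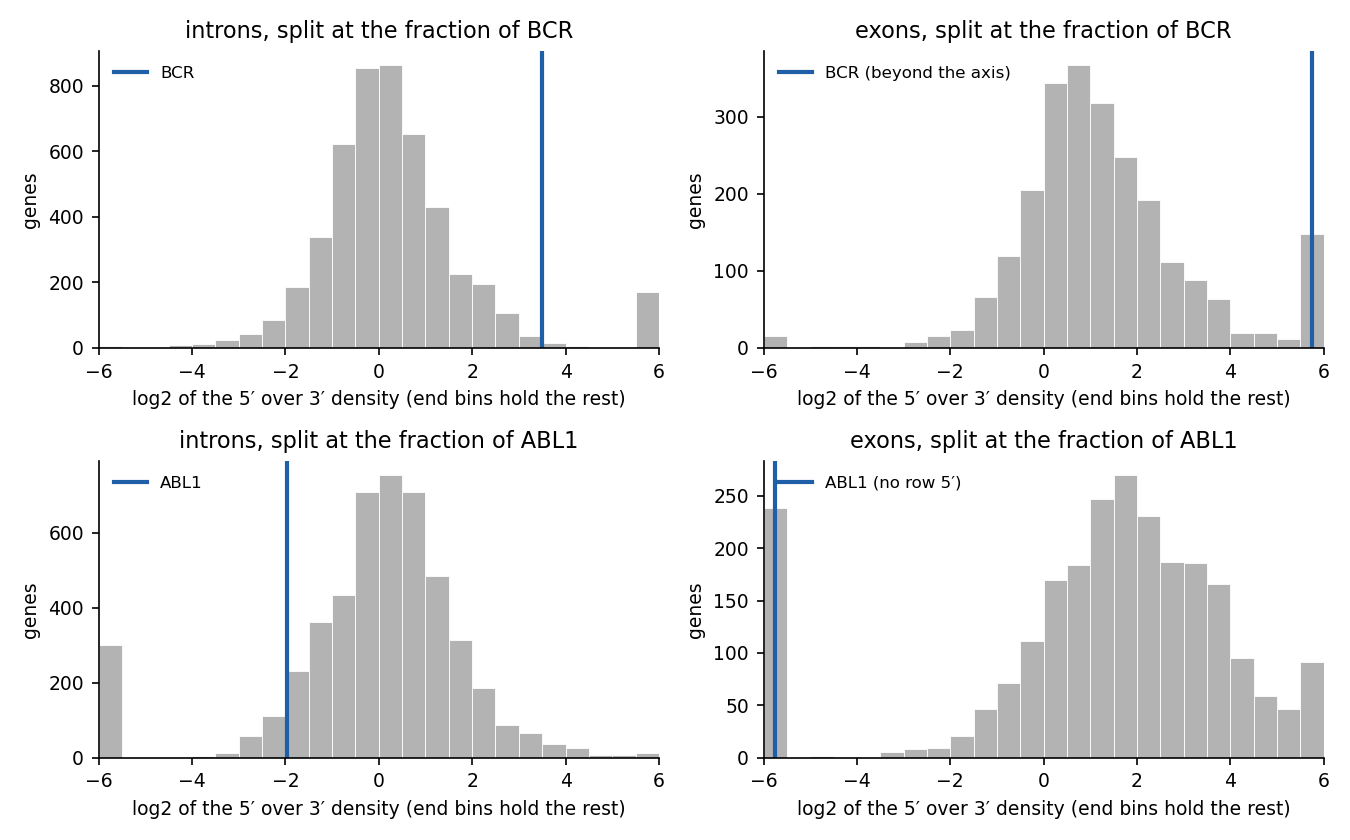
Number of protein-coding genes (vertical axis) by log2 of the 5′ over 3′ density of sense sncRNAs of 18 nt or longer (horizontal axis, with all values past the ends in the end bins), in introns and exons, split at the fraction of BCR or of ABL1, where the blue line marks the gene itself. BCR lies in the upper tail in introns (4.14% of genes as high or higher), and ABL1 in the lower part in introns (10.4% as low or lower).

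Beside the genes, the side joined to the fused part had the lower plus-strand density on chromosome 22 and the higher on chromosome 9. Over 500 kb, plus-strand sncRNAs of 18 nt or longer numbered 0.13 per kb (0.100–0.166) upstream of BCR, the side joined to the fused part, and 0.188 per kb (0.152–0.230) downstream of it. These intervals overlap. On chromosome 9 they numbered 0.946 per kb (0.863–1.04) downstream of ABL1, the side joined to the fused part, and 0.459 per kb (0.392–0.534) upstream, where the window includes the 16 of exon 1b and 133.793 kb of undetermined bases in the reference were left out. On the minus strand of chromosome 9 the densities were 0.43 per kb on the joined side and 0.158 per kb on the other. On that of chromosome 22 they were 0.126 per kb (0.0968–0.161) on the joined side and 0.284 per kb (0.239–0.335) on the other. Neighbouring genes lie within these windows, although MIF and NCS1, named below, lie outside them. Copies of the fused segments in the genome and the level of transcription cannot be told apart from these values.

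Among neighbouring genes chosen for their side, exon reads of 18 nt or longer per kb (recovered reads on the strand of the gene) were compared with the median of 1.33 over 19794 protein-coding genes, of which 38.4% lay more than 2-fold above it and 41.9% more than 2-fold below it. On the joined side of chromosome 22, none of 3 lay above, and GNAZ, which encodes a G protein subunit, was highest at 1.89, while RAB36 and RSPH14 had none. On the joined side of chromosome 9, 3 of 8 lay above, with NUP214, a nuclear pore protein, highest at 17.1 and LAMC3 and QRFP at 0. On the other sides, 2 of 10 lay above on chromosome 22, with MIF, a cytokine, highest at 71.8, and IGLL1, RGL4 and VPREB3 at 0. On the other side of chromosome 9, 3 of 5 lay above, with NCS1, a calcium sensor, highest at 22.3 and ASS1, an enzyme of arginine synthesis, lowest at 0.446.

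On the same scale the exons on either side of the BCR breakpoint were far apart, whereas those of ABL1 were close with the whole of exon 1b. The exons of BCR 5′ of the breakpoint had 36.1 reads per kb (122 reads), and 97.9% of protein-coding genes had less. Those 3′ of it had 0.282 reads per kb (1 read), which is within the limit of 0.845 per kb that a count of 0 would allow. Only 20.1% of these 3′ exon positions start an 18-mer found once in GRCh37, so that their reads per kb over full length may be too low. The exons of ABL1 3′ of the breakpoint had 15.4 reads per kb (86 reads), and 93.2% of genes had less. Exon 1b in full had 18.4 reads per kb.

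The paralogs differ from the fused genes in that neither is part of the fusion. ABL2, the kinase related to ABL1, had 3.72 reads per kb (46 reads), and ABR, the protein related to BCR, had none in 8.512 kb.

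Of 40 genes of the BCR-ABL1 signalling pathway, 28 (70%, against 38.4% of all protein-coding genes) lay more than 2-fold above the median of all genes and 6 lay more than 2-fold below it (against 41.9% of all genes), and the median of the list was 6.44 reads per kb. CRKL, an adaptor protein and a main substrate of the fused kinase, had 45.1 reads per kb and is named after its value was seen, since it lies on chromosome 22 upstream of BCR and ends 2215 kb before its start. Among the genes with no reads were the adaptor DOK2, the phosphatase INPP5D and RIN1, a Ras effector. The list was written with earlier results of these data known, and its count describes these libraries only.

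Markers were used to check the label of the cells. All 10 erythroid markers lay more than 2-fold above the median of all genes, as did 38.4% of all genes, from EPOR at 4.79 to HBG1 at 453 reads per kb, although reads of HBG1 and its near-identical copy HBG2 may be divided between them. All 5 B-lymphoid markers lay more than 2-fold below that median, as did 41.9% of all genes, with PAX5 highest at 0.338 and CD79A and CD79B at 0. Of 4 T-lymphoid markers, CD3D lay more than 2-fold above it with 2 reads (2.85 per kb), and CD3E, CD4 and CD8A were at 0. The 3 granulocytic markers were more than 2-fold below it (MPO highest at 0.311, ELANE and CEBPE at 0), and the 2 monocytic markers CD14 and CSF1R and the 2 markers of the embryonic kidney line, PAX2 and LHX1, were at 0. CDKN2A and CDKN2B, which are known to be deleted in K562, had 0 and 1 reads of 18 nt or longer and 10 and 3 reads of any length.

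Reads were few for almost every sncRNA of the fused parts. In BCR 5′ of the breakpoint, 177 of 224 sense sncRNAs of 18 nt or longer (79.0%) had 1 read and the highest had 17. In ABL1 3′ of the breakpoint, 175 of 228 (76.8%) had 1 read and the highest had 9. They formed 160 and 192 clusters of overlapping sncRNAs.

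The members with the most reads were shorter than 18 nt, and the highest of each gene was antisense. A 15-nt sncRNA of BCR intron 5 on the minus strand (chr22:23611305-23611319) had 316 reads, 3502 RPKM as deposited and 5 exact matches, and its cluster held 564 reads. A 16-nt sncRNA of ABL1 intron 1a on the minus strand (chr9:133716675-133716690) had 89 reads, 1438 RPKM and 3 exact matches. The most abundant sense one was a 15-nt sncRNA of ABL1 intron 1b (chr9:133634663-133634677) with 49 reads and 1 exact match. These sequences are shown because they had more reads than any other of their gene and strand.
BCR intron 5, antisense: tctttcgaggccctg
ABL1 intron 1a, antisense: aacccccgggcgcctg
ABL1 intron 1b, sense: ccaactggtcgttgt

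Together the antisense sncRNAs under 18 nt held 811 reads in BCR, against 310 for its sense sncRNAs of 18 nt or longer. In ABL1 the same groups held 232 and 314 reads. The share of short antisense sncRNAs with 1 exact match was 11.4% in both genes (5.59–19.9% in BCR and 5.34–20.5% in ABL1), so that the place of origin of most of them is uncertain.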

How the data were processed

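Small RNA of 3 K562 batches was sequenced by the authors, aligned to GRCh37 (hg19) with Bowtie2 2.2.9 and kept where the aligner listed them as unique, although sense sncRNAs of 18 nt or longer had up to 21778 exact matches and most shorter ones had more than 1. Their annotation release was not given in the sources used here. The deposited table pools the batches and gives, for each alignment, counts of reads and the RPKM computed by the authors. The deposited counts are multiples of the number of listed neighbours, the alignment itself among them, whose 2 ends differ by no more than 3 nt together, and division by this number gave the reads used here (47670688). RPKM was used as deposited.

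Each alignment was counted once at its 5′ end. Ratios of density have exact conditional (Clopper-Pearson) 95% intervals, and no test was run. Except where clusters are named, these intervals take overlapping sncRNAs as separate counts. A count of 0 was taken to allow 3. Exact matches were counted on both strands of GRCh37, over the first 31 bases of longer sequences. Exons were those of protein-coding transcripts of GENCODE 44. The depth was 54140681 reads behind the RPKM. Reads carry no molecular identifiers, so that intervals cover counting error only.

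Members, lists, breakpoints and named sncRNAs were chosen with earlier results of these data known. sncRNAs were named by the cluster of most reads in each gene, side, element and strand and by nearness to the breakpoints, and other genes as highest and lowest of each list. Alternatives were other read minimums, units, length limits, splits, exons and unique positions. Limits to 1 exact match, removal of the top cluster and the annotated start of ABL1 were added after seeing the data. Steps were tested on simulated data. Software was pandas 2.3.3, scipy 1.17.1, matplotlib 3.10.9, numba 0.67.0, numpy 2.4.6 and Python 3.11.15. Some genes and 1 sncRNA that these rules name are not reported here.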

Additional observations from a re-analysis of the deposited data

How the results depend on the processing

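Of 89 alternative values of the 8 density ratios, 84 lay within the interval of the value reported. Part of this count was fixed in advance and does not measure robustness. Within the bounds of the rule, the exons of ABL1 held no sense sncRNA 5′ of the breakpoint. No filter could therefore change their ratios, which differed only with the annotated start of exon 1b. The alternative that moved the ABL1 split to exon 2 left the BCR split, and so the BCR ratios, as they were. ABL1 introns at 18 nt or longer changed side when the split was moved to exon 2 (1.02). ABL1 exons at 18 nt or longer did so with the annotated start of exon 1b (1.07), by its construction through the 16 sncRNAs added, which formed 2 clusters. With the split 5 kb further 5′, the ratio fell to 1.75 in BCR introns and 12.9 in BCR exons at 18 nt or longer, as 24 sncRNAs of the fused part were then counted on the other side. With at least 2 reads for each sncRNA, the ratio of ABL1 introns under 18 nt was 2.48 (4 against 14 sncRNAs), and the cause was not tested. Of 65 alternatives to ratios whose interval excludes equal density, 7 had an interval that includes it. These were the ones at exon 2 and from the annotated exon 1b above, ABL1 exons at a limit of 20 nt, and, with at least 2 reads, ABL1 introns and exons at 18 nt or longer and BCR introns and exons under 18 nt. In 11 cases no ratio could be formed because a side held no sncRNA. Of the 40 pathway genes, 25 to 29 lay above the 2-fold limit in the alternatives. No paired analysis was possible because the deposited values pool the 3 batches, and for the same reason no batch could be left out. The depth limits the parts that are not fused, where 4 and 5 sense sncRNAs of 18 nt or longer, and 8 and 6 under 18 nt, stand behind the ratios.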

Other observations

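The ends of the sense sncRNAs of 18 nt or longer differed in base content from the sequence of the genes. In BCR, 36.0% began with C, whereas C makes up 26.0% of the gene's sense strand, and 39.5% ended with G against 27.1%. A was the last base of 9.65% of them in BCR, against 21.7% of positions. In ABL1, 31.8% began with C against 21.9% of positions and 35.6% ended with G against 22.6%, while 25.3% ended with A against 26.1%. Among the sense sncRNAs of ABL1 under 18 nt, 3 ended at the last base of an exon.

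A processed pseudogene, FBXW4P1 (chr22:23604954-23607192), lies within a BCR intron on the same strand and held 9 sncRNAs with 10 reads, which cannot be told apart from those of the BCR intron.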
